A study of Mus musculus with 34 samples.

Results

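The airway epithelium of Gprc5a-/- mice was compared between 5 animals sampled 2 months after the end of exposure to the tobacco nitrosamine NNK (t2) and 6 animals sampled before exposure (baseline), which makes 11 of the 34 libraries of the series. Libraries were taken by the month given in their labels and are named by group and animal number. Gprc5a encodes an epithelial receptor whose loss favours lung tumours, and every mouse compared here was labelled as a knockout, baseline animals included. The exposed mice received 50 mg/kg NNK by intraperitoneal injection 3 times a week for 8 weeks, starting at an age of 8 weeks per the series design, whereas the labels give 6 to 8 weeks as the age of every group. Cells were brushed from the trachea, and each library came from a separate mouse. Unexposed mice as old as the t2 group were not analysed here, and age cannot be told apart from exposure. The lung tumours of this model arise later, in the distal lung, and the brushed trachea is tissue without tumour.

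The tracheal surface is built from basal stem cells, secretory club and goblet cells, multiciliated cells and rare tuft, neuroendocrine and ionocyte cells. Club cells carry the cytochromes that activate NNK into DNA-alkylating products, and after injury basal cells divide, migrate and rebuild the layer, at times through a stratified, keratin-rich stage. The comparison asks what of the exposure remains in the airway once dosing has stopped. A brushing is a mixture of cells, so fewer cells of a type and less RNA per cell cannot be told apart in these data.

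Total counts were 22.7 to 29.7 M in the baseline libraries and 21.2 to 29.5 M at t2. Library t2 339 stood apart: 14283 genes were above 0 in it, against 17234 to 18088 in the other t2 libraries and 16686 to 18478 at baseline. The targeted gene Gprc5a also held 238 counts in t2 339, against 11 to 36 in the other t2 libraries and 17 to 41 at baseline, so the library labelled t2 339 meets its knockout label less closely than the others. Each result was therefore computed with and without this library. Library t2 334, a male by its 1589 Y-linked counts, held 492 counts of Xist, against 13 to 66 in the other 11 male libraries. Library t2 347, a female with 20132 counts of Xist, held 21 Y-linked counts, against 0 to 5 in the other female libraries. Whether t2 339, t2 334 or t2 347 holds RNA of more than 1 animal was not tested. Without t2 339 and t2 334 together, 2054 genes passed rather than the 2953 given below, and without t2 347 alone, 2845. Both sexes were present in both groups (2 males and 4 females at baseline, 2 and 3 at t2).

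Of 14847 genes tested, 2953 (19.9%) differed between t2 and baseline at an adjusted p below 0.05 in edgeR's quasi-likelihood test. Of these, 1657 (11.2% of the genes tested) were higher and 1296 (8.73%) lower, and 978 differed at least 2-fold, 557 up and 421 down. Without t2 339, 3293 genes passed (22.2%; 1727 higher, 11.6%, and 1566 lower, 10.5%), and the 2390 shared genes, 80.9% of the first set and 72.6% of the second, had 0 changes of sign. For 1774 genes (11.9%) the 5 t2 and the 6 baseline libraries did not overlap. This held for 1532 of the genes that passed (51.9%). Some genes named below were chosen for a lack of overlap, which is then no further support for their difference. The median log2 fold change of all genes was 0.02. Scaled by library totals alone it was 0.12, and 80.3% of calls were then higher (2050 higher and 504 lower), against 56.1% here. Values after a gene are its log2 fold change (t2 over baseline) ± SE, followed by the p adjusted over all genes tested. Where a list is given with 0 calls in a direction, leaving out any single library gave at most 1, except for 2 lower ion and fluid transport genes without t2 339 and 2 higher neutrophil and mast cell markers without Baseline 345. Levels are CPM scaled by TMM, and the t2 levels of a gene are always listed in the order of animals 334, 339, 347, 358 and 360.

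**Figure D1:**
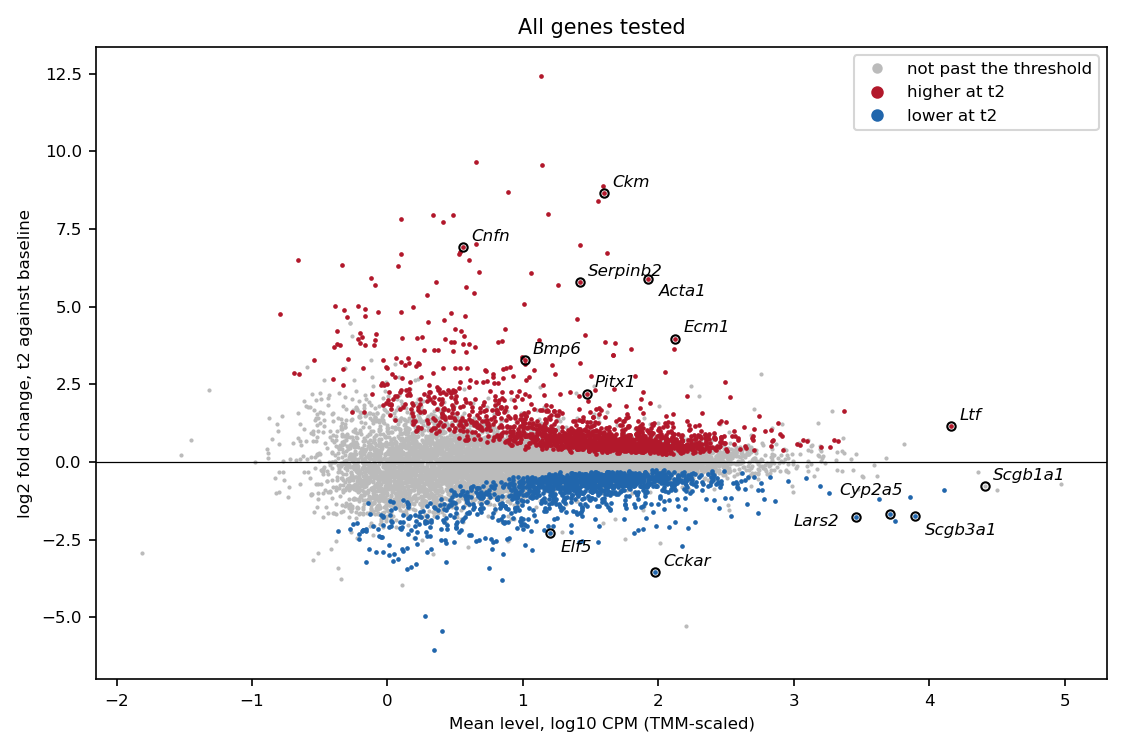
Log2 fold change of each of the 14847 genes tested (t2 over baseline, vertical axis) against its mean level in both groups (log10 CPM, horizontal axis). Red points are the 1657 genes higher and blue points the 1296 genes lower at an adjusted p below 0.05, and circles mark genes described in the text.

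Among the smallest adjusted p-values were those of genes of signalling, metabolism and transport that lie outside the cell type lists. Sulf2, an extracellular sulfatase that trims heparan sulfate, lay at 6.68 to 16.1 CPM at baseline (median 11) and at 66.8, 36.2, 41.1, 60.6 and 77.3 CPM at t2. Arap2, a GTPase-activating protein of the Arf family, lay at 1.06 to 2.47 CPM (median 1.76) and at 8.28, 12.6, 9.70, 16.3 and 5.84 CPM. The groups did not overlap for either gene (Sulf2 2.33 ± 0.21, 8.5e-08; Arap2 2.54 ± 0.24, 1e-07). Bcat1, which starts the breakdown of branched-chain amino acids, went from at most 0.363 CPM to 3.86 to 6.54 CPM (4.56 ± 0.52, 3.8e-06). Muc13, a membrane mucin, went from at most 1.25 CPM to 2.26 to 11.3 CPM (4.23 ± 0.68, 0.00017), and without Baseline 345 its log2 value was 5.41. Among the falls, the amino acid transporter Slc38a1 lay at 101 to 155 CPM at baseline (median 125) and at 25.9, 31.5, 15.6, 23.7 and 46.0 CPM at t2 (−2.15 ± 0.25, 4.1e-06). The peptide transporter Slc15a2 fell from 285 to 542 CPM to 125 to 202 CPM (−1.48 ± 0.20, 1.9e-05), the cyclophilin Ppic from 54.6 to 82.4 CPM to 22.6 to 28.9 CPM (−1.33 ± 0.14, 1.5e-06) and the secretory-granule regulator Cadps2 from 56.7 to 80.2 CPM to 30.0 to 38.6 CPM (−0.96 ± 0.12, 1.1e-05). All t2 libraries lay below all baseline libraries for these 4 genes.

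Several of the steepest falls were in genes of low to moderate level. Serpinf1, which encodes the secreted anti-angiogenic serpin PEDF, lay at 34.8 to 77.1 CPM at baseline (median 65.5) and at 9.39, 18.2, 8.08, 5.01 and 10.4 CPM at t2 (−2.59 ± 0.33, 1.1e-05). Lrrn3, a leucine-rich repeat membrane protein, fell from 29.7 to 63.4 CPM to 2.93 to 10.8 CPM (−2.59 ± 0.35, 2.2e-05). The ATP-gated channel gene P2rx2 fell from 6.27 to 14.7 CPM to 0.841 to 3.23 CPM (−2.56 ± 0.44, 0.00037). The groups did not overlap for these 3 genes. The elongation factor partner Eaf2 fell from 11.4 to 29.1 CPM to 0.097 to 5.04 CPM (−2.85 ± 0.48, 0.00029) and the paternally expressed gene Peg3 from 6.76 to 12.4 CPM to 2.05, 0, 2.34, 2.26 and 1.95 CPM (−2.58 ± 0.52, 0.0013). Both were lowest in t2 339, and without it their values were −2.54 (adjusted p = 2.5e-05) and −2.25 (adjusted p = 1.7e-05). Zfp521, a zinc finger regulator of progenitor cells in other tissues, was at 8.10 to 14.2 CPM and then at 0.722, 0, 0.481, 0.371 and 3.27 CPM (−3.42 ± 0.73, 0.002). Its highest t2 level was in 360, and its log2 value was −4.70 without that library.

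Club cell transcripts were lower at t2, although not every marker passed, which does not show that the others were unchanged. Of 19 club cell markers tested, 10 were lower and 0 higher (median −0.77), and 9 were lower without t2 339. The secretoglobin Scgb3a1 lay at 7420 to 18300 CPM at baseline (median 11100) and at 2040, 3560, 3920, 2590 and 5850 CPM at t2. The carbonyl reductase Cbr2, abundant in club cells, lay at 13500 to 20300 CPM (median 15900) and at 10500, 7350, 6740, 10500 and 9490 CPM. Every t2 library was below every baseline library for both genes (Scgb3a1 −1.75 ± 0.34, 0.00087; Cbr2 −0.89 ± 0.22, 0.0053). Cckar, a cholecystokinin receptor that marks club cells in mouse airway, fell from 127 to 227 CPM to 12.0, 22.3, 15, 5.23 and 19.0 CPM (−3.56 ± 0.56, 0.00013). The retinaldehyde dehydrogenase Aldh1a1 fell from 3710 to 10600 CPM to 1990 to 2990 CPM (−1.18 ± 0.24, 0.0014), and the lineage regulator Nfia from 37.5 to 49.8 CPM to 17.5 to 36.1 CPM (−0.75 ± 0.18, 0.006). In contrast to these, Scgb1a1, the main secretory product of club cells, did not pass: it lay at 25500 to 44200 CPM at baseline (median 29800) and at 23100, 15300, 10100, 19700 and 26700 CPM at t2, where only 360 reached the baseline range (−0.77 ± 0.36, 0.13). The secreted Bpifa1 averaged 117000 ± 29100 CPM (SD) at baseline and 71300 ± 37300 at t2 (−0.71 ± 0.33, 0.13), and the club cell cytochrome Cyp2f2 25600 ± 3700 and 20300 ± 5520 CPM (−0.33 ± 0.21, 0.28).

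**Figure D2:**
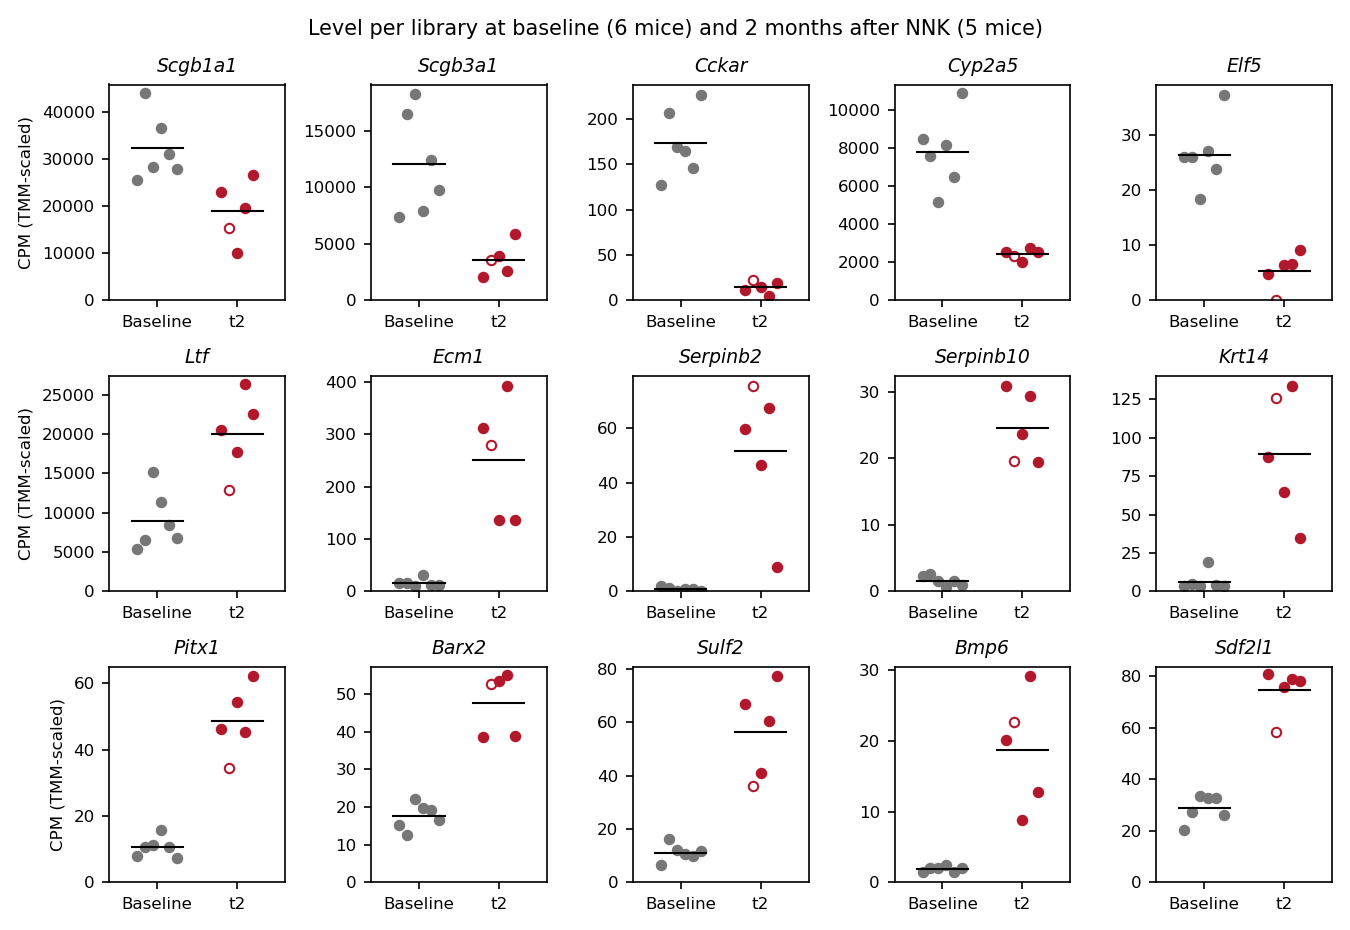
Level of 15 genes (CPM, linear axes from 0) in each of the 6 baseline (grey) and 5 t2 libraries (red, open circle for t2 339), with lines at group means. Scgb1a1 has 1 t2 library in the baseline range, whereas for Scgb3a1, Cckar, Cyp2a5 and Elf5 all t2 libraries lie below, and for the genes from Ecm1 to Sdf2l1 above, all baseline libraries. For Ltf, t2 339 lies within the baseline range.

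Few secreted defence proteins passed. Of 18 tested, 2 were lower (11.1%) and 1 higher (5.56%), against 8.73% and 11.2% of all genes. The bactericidal lectin Reg3g fell from 5960 to 14600 CPM to 3190 to 5760 CPM (−1.13 ± 0.22, 0.0011). The immunoglobulin transporter Pigr, which carries IgA to the surface, fell from 2010 to 3880 CPM to 786 to 1560 CPM (−1.0 ± 0.19, 0.00084). The collectin Sftpa1, counted in another list, that of alveolar epithelium, fell from 486 to 1240 CPM to 119 to 368 CPM (−1.65 ± 0.38, 0.0036). The iron-binding protein gene Ltf was higher: 5400 to 15200 CPM at baseline (median 7620) and 20500, 12900, 17700, 26400 and 22500 CPM at t2 (1.16 ± 0.25, 0.0022). All t2 libraries other than 339 exceeded the baseline range of Ltf. Without Baseline 345 the list had 3 members higher, and without Baseline 352 2. Of 21 mucin and goblet cell genes, 2 were higher (9.52%) and 2 lower (9.52%). The number higher ran from 0 to 5 when single libraries were left out: it was 0 without Baseline 343, 344 or 356 or t2 360, 5 without Baseline 352 and 1 without any other library. The number lower was 1 without Baseline 345. The gel-forming mucins did not pass: Muc5b averaged 3800 ± 1130 and 2730 ± 1060 CPM (−0.48 ± 0.31, 0.28) and Muc5ac 27.7 ± 16.1 and 43.8 ± 19.8 CPM (0.66 ± 0.61, 0.47). The membrane-bound Muc20 fell from 69.9 to 137 CPM to 32.8 to 67.9 CPM (−0.91 ± 0.21, 0.0039).

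Few motile cilium genes differed from baseline, while some regulators of the multiciliated fate were above it. Of 25 axonemal and other structural genes 1, Tubb4b, was higher and 0 lower (median −0.06), and Tubb4b did not pass without t2 347 (adjusted p = 0.052). The count was 2 without t2 358. The outer arm dynein Dnah5 lay at 586 to 820 CPM at baseline and at 451, 534, 955, 326 and 555 CPM at t2 (−0.30 ± 0.35, 0.58), so t2 spread wider on both sides of the baseline range. Of 14 regulators, 5 were higher and 0 lower (median 0.29), and 4 were higher without t2 339. Mcidas, which switches on multiciliogenesis, lay at 3.85 to 10.8 CPM at baseline (median 6.43) and at 13.5, 21.4, 15.8, 11 and 21.3 CPM at t2. E2f4, its DNA-binding partner, lay at 36.8 to 49.5 CPM (median 39.8) and at 72.7, 58.4, 53.2, 72.5 and 60.8 CPM. Neither gene overlapped between groups (Mcidas 1.37 ± 0.28, 0.0013; E2f4 0.59 ± 0.14, 0.005). The ciliary transcription factor Rfx2 rose from 57.0 to 97.8 CPM to 91.9 to 139 CPM (0.75 ± 0.19, 0.0067), with t2 358 inside the baseline range. Foxj1, which drives the later steps, averaged higher without passing (0.43 ± 0.26, 0.26).

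Keratins and cornified-envelope genes of stratified epithelium remained above baseline. Of 28 squamous genes listed, 24 were tested, of which 12 were higher and 0 lower (median 1.81). Without t2 339, 10 were higher and 1 lower. Genes near 0 at baseline could pass the level filter only through libraries where they were high, which partly sets these numbers. Ecm1, an extracellular matrix protein of epidermis that was not in the list, lay at 9.98 to 31.6 CPM at baseline (median 13.7) and at 312, 280, 136, 393 and 136 CPM at t2 (3.97 ± 0.46, 4.1e-06). The desmosomal cadherin Dsg3 rose from at most 1.35 CPM to 9.04, 6.79, 11.7, 5.53 and 1.90 CPM (3.55 ± 0.56, 0.00012). The transglutaminase Tgm1, which crosslinks the cornified envelope, rose from 1.84 to 3.16 CPM to 8.46 to 24.6 CPM (2.76 ± 0.36, 1.2e-05). These 3 genes did not overlap between groups. Cnfn, a cornified-envelope protein, was at 0 to 0.388 CPM at baseline (median 0, highest in 352) and at 1.10, 13.8, 1.93, 4.57 and 14.2 CPM at t2 (6.93 ± 1.32, 0.00089, and 10.53 without Baseline 352). Crct1, another cornified-envelope gene, had 0 counts over the baseline libraries and 55 over those of t2, at least 21.1-fold higher against a floor of 3 counts over the group (14.7-fold without t2 360, 0 counts in t2 339). The mucosal keratin Krt13 lay at 1.20 to 22.6 CPM and at 33.1, 38.7, 48.2, 93.5 and 22.4 CPM (3.20 ± 0.80, 0.0072), and its log2 value was 4.75 without Baseline 352, which held the highest baseline level. Upk3bl, which encodes a uroplakin-like membrane protein, rose from 3.74 to 7.85 CPM to 50.6 to 133 CPM (3.87 ± 0.45, 4.6e-06).

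The basal cell list gave 10 of 19 markers higher and 1 lower (median 0.61), but most of these calls were close to the threshold. Without t2 339, Baseline 344, Baseline 356 or t2 358 the number higher was 4, without Baseline 345 or Baseline 355 it was 5, and without t2 334 it was 6. The 1 lower call, of Pdpn, was lost without any of 7 single libraries: t2 339, t2 334, t2 347 or Baseline 345, 352, 355 or 356. The calls of the keratins Krt14 and Krt17 held without any single library. Krt14 lay at 3.31 to 18.9 CPM at baseline (median 3.92) and at 87.5, 126, 64.8, 134 and 34.7 CPM at t2 (3.84 ± 0.49, 1.3e-05, and 4.55 without Baseline 352). Krt17 lay at 21.9 to 30.4 CPM (median 28.5) and at 143, 127, 112, 215 and 41.4 CPM (2.25 ± 0.40, 0.00045). Both had their lowest t2 level in 360, still above all baseline libraries. Krt5, the common basal keratin, lay at 141 to 283 CPM and at 402, 464, 230, 510 and 230 CPM (0.81 ± 0.29, 0.043, up to 0.12 when any of 7 single libraries was left out). The basal master regulator Trp63 averaged 39.7 ± 4.91 CPM at baseline and 40.9 ± 12.1 at t2 (0.04 ± 0.20, 0.9), and Krt15 1170 ± 499 and 1490 ± 518 CPM (0.35 ± 0.32, 0.47).

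Several serpin genes of a run on chromosome 1 were higher. Clade B serpins are protease inhibitors that act inside cells or at their surface, and many lie side by side in this cluster. Of 16 serpins tested across the genome, 7 were higher and 2 lower, and the number lower was 1 without Baseline 344, Baseline 356, t2 334 or t2 360. Serpinb5, Serpinb12, Serpinb11, Serpinb2 and Serpinb10, all higher, lie in this order between 106861180 and 107549271 (mm10). Serpinb10 lay at 0.630 to 2.59 CPM at baseline (median 1.57) and at 30.9, 19.6, 23.6, 29.4 and 19.4 CPM at t2. Serpinb2, which encodes the plasminogen activator inhibitor PAI-2, lay at 0.145 to 2.16 CPM (median 0.798) and at 59.6, 75.6, 46.3, 67.5 and 9.11 CPM. Serpinb5, which encodes maspin, lay at 5.71 to 10.3 CPM (median 7.53) and at 31.7, 59.9, 31.6, 39.6 and 22.3 CPM. The t2 libraries were above all baseline libraries for each of these (Serpinb10 3.93 ± 0.35, 8.5e-08; Serpinb2 5.80 ± 0.64, 3.8e-06; Serpinb5 2.24 ± 0.26, 4.1e-06), with 360 the lowest for Serpinb2 and Serpinb5. Serpinb11 (2.12 ± 0.33, 0.0001) was highest in t2 347, at 474 CPM, and Serpinb12 (1.75 ± 0.34, 0.00089) too, at 90.8 CPM. A further clade B gene, Serpinb8, did not pass (0.74 ± 0.27, 0.053). On chromosome 13, Serpinb6b was higher (1.05 ± 0.23, 0.0021), at 98.7 CPM in t2 339 and 50.6 to 61.1 CPM in the other t2 libraries. Serpinb6a was lower (−0.42 ± 0.14, 0.031), a call lost without Baseline 344, Baseline 356, t2 334 or t2 360 (adjusted p up to 0.1). Serpinb6b and Serpinb6a are close paralogs, whose reads the counting may have shared.

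Several claudins, the strand proteins of tight junctions, were higher. Of 19 junction genes, 6 were higher and 1 lower. The number lower was 2 without t2 334. The sealing claudins Cldn3 and Cldn4, neighbours on chromosome 5, were both higher. Cldn3 lay at 347 to 549 CPM at baseline (median 454) and at 1320, 554, 922, 1470 and 1130 CPM at t2 (1.26 ± 0.22, 0.00041), with t2 339 just above the baseline range. Cldn4 lay at 85.0 to 217 CPM and at 274, 304, 185, 437 and 198 CPM (1.18 ± 0.29, 0.005), with 347 and 360 inside the baseline range. Cldn7 (0.89 ± 0.21, 0.0042), Cldn23 (1.18 ± 0.24, 0.0012) and the cation-pore claudin Cldn2 (1.51 ± 0.32, 0.0018) were also higher. Cldn10, the claudin found in club cells, fell from 37.3 to 85.6 CPM to 20.3, 2.98, 9.56, 28.9 and 12.8 CPM (−1.85 ± 0.44, 0.0047). Among 21 ion and fluid transport genes, 4 were higher (19.0%, against 11.2% of all genes) and 0 lower, and 3 and 2 without t2 339. Slc9a3r1, a scaffold of apical transporters, lay at 193 to 266 CPM at baseline and at 363, 294, 423, 292 and 401 CPM at t2 (0.63 ± 0.14, 0.0026), without overlap.

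Markers of the rare cell types went different ways. Tuft cells are chemosensory cells that use taste-type signalling, and of 16 of their markers 6 were lower and 0 higher (median −0.78). Gnat3, the taste G protein subunit gustducin, lay at 8.59 to 26.8 CPM at baseline (median 11) and at 5.17, 2.04, 2.99, 6.79 and 3.05 CPM at t2 (−1.90 ± 0.41, 0.0024). The signalling regulator Rgs13 fell from 2.12 to 12.1 CPM to 0.619 to 1.71 CPM (−2.14 ± 0.48, 0.003), and the kinase Dclk1 from 14.9 to 36.4 CPM to 8.02, 0, 6.81, 8.13 and 6.81 CPM (−2.05 ± 0.56, 0.012, and −1.72 without t2 339). All 3 were below baseline in every t2 library. The channel gene Trpm5 averaged 35.4 ± 10.3 and 14.7 ± 9.77 CPM without passing (−1.27 ± 0.56, 0.1), and the tuft cell master regulator Pou2f3 5.41 ± 1.14 and 4.84 ± 2.20 CPM (−0.16 ± 0.32, 0.77).

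Of 15 neuroendocrine markers, 7 were higher and 0 lower (median 0.77). Their summed level was 148 to 180 CPM at baseline and 256, 289, 295, 226 and 137 CPM at t2, so that 360 lay below all baseline libraries. Calca, which encodes the neuropeptide CGRP, lay at 3.48 to 7.49 CPM at baseline and at 19.1, 13.5, 12.4, 35.4 and 12.6 CPM at t2 (1.69 ± 0.36, 0.0019). Its groups did not overlap, whereas t2 339 lay inside the baseline range for the granule protein gene Scg2 (1.66 ± 0.44, 0.0097), as did 360, and near its middle for the vesicle protein gene Cplx2 (0.72 ± 0.17, 0.0052). Among 12 ionocyte and proton pump genes, 2 were higher and 2 lower (16.7% each), against 11.2% and 8.73% of all genes. The pump subunits Atp6v0a4 (1.68 ± 0.50, 0.019) and Atp6v0d2 (2.02 ± 0.60, 0.02) were higher, while the subunit Atp6v1b1 fell from 135 to 190 CPM to 108, 34.9, 55.4, 80.4 and 48.2 CPM (−1.25 ± 0.30, 0.005). The ionocyte regulator Foxi1 averaged 3.52 ± 1.18 and 3.18 ± 2.61 CPM (−0.15 ± 0.62, 0.89) and the chloride channel Cftr 3.37 ± 1.20 and 3.14 ± 1.78 CPM (−0.10 ± 0.43, 0.89).

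Of 14 submucosal gland genes, 5 were higher and 1 lower (median 0.66). The number higher was 2 without Baseline 343, Baseline 344 or Baseline 356 and 3 without Baseline 355, t2 347 or t2 358, and the lower call was lost without t2 339, Baseline 343, Baseline 344, Baseline 356 or t2 358. It was 2 without t2 347. Dmbt1, a scavenger receptor secreted by glands, kept its call without any library: it lay at 328 to 2420 CPM at baseline (median 675) and at 3060, 2960, 3610, 3010 and 5070 CPM at t2 (1.63 ± 0.46, 0.015). The proline-rich salivary protein gene Prb1 lay at 0 to 0.679 CPM and at 3.53, 8.67, 2.85, 2.75 and 28.8 CPM (6.11 ± 1.39, 0.0034, 7.80 without Baseline 352 and 5.04 without t2 360), and its near-identical copies make its identity uncertain.

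Several transcription factors of regional and lineage identity differed in every t2 library from every baseline library. Of 23 tested, 4 were higher (17.4%) and 3 lower (13.0%), against 11.2% and 8.73% of all genes. The number lower was 5 without t2 360. Pitx1, a homeobox factor of oral and hindlimb epithelium and mesenchyme, lay at 7.41 to 15.8 CPM at baseline (median 10.7) and at 46.2, 34.6, 54.5, 45.2 and 62.3 CPM at t2. Barx2, a homeobox factor of stratified and glandular epithelia, lay at 12.7 to 22.2 CPM (median 17.9) and at 38.7, 52.6, 53.5, 55.2 and 38.8 CPM. Every t2 library was above every baseline library for both genes (Pitx1 2.20 ± 0.27, 6.2e-06; Barx2 1.44 ± 0.16, 3.7e-06). The foregut factor Pax9 (1.03 ± 0.18, 0.00048) and the epithelial ETS factor Elf3 (0.83 ± 0.16, 0.00092) were higher without overlap. Elf5, another ETS factor, known from mammary alveolar and distal lung epithelium, went the other way: 18.3 to 37.2 CPM at baseline (median 25.9) and 4.86, 0, 6.33, 6.57 and 9.11 CPM at t2 (−2.30 ± 0.59, 0.0073, and −1.97 with adjusted p = 0.00089 without t2 339). The airway factors Nkx2-1 (−0.37 ± 0.16, 0.1), Sox2 (0.36 ± 0.16, 0.12) and Foxa2 (−0.24 ± 0.29, 0.59) did not pass.

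Many enzymes that handle foreign compounds were lower. Phase I enzymes oxidise or hydrolyse a compound and phase II enzymes attach a soluble group, and in airway both are concentrated in club cells, whose markers were lower in the same libraries (10 of 19, with a summed level of 204000 to 268000 CPM at baseline and 101000 to 190000 at t2). That marker list itself holds enzymes of this kind, among them Cyp2f2, Cbr2 and Aldh1a1, so the readings are not independent. The part of the club cell difference in the enzyme levels was not tested. Of 31 phase I genes, 10 were lower and 1 higher (median −0.28), with 5 lower without Baseline 356 and 6 without t2 334, and with 0 higher without t2 358. Of 32 phase II genes, 10 were lower and 0 higher (median −0.49). Scaled by library totals alone the numbers lower were 6 and 8. Cyp2a5, which activates NNK and is the mouse counterpart of human CYP2A13, lay at 5160 to 10900 CPM at baseline (median 7870) and at 2560, 2320, 2030, 2730 and 2520 CPM at t2 (−1.68 ± 0.25, 5.7e-05). All 5 t2 libraries lay within a narrow band below the baseline range. Reads of its near-identical neighbour Cyp2a4 (−2.07 ± 0.40, 0.00088) may have been shared with it.

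Among the conjugating enzymes, the glutathione transferase Gsta3 lay at 423 to 1030 CPM at baseline (median 625) and at 228, 320, 214, 317 and 202 CPM at t2 (−1.35 ± 0.20, 7.8e-05). The sulfotransferase Sult1d1 lay at 346 to 601 CPM and at 211, 181, 221, 221 and 134 CPM (−1.15 ± 0.20, 0.00041). Neither overlapped between groups. The theta-class transferase Gstt3 (−0.97 ± 0.20, 0.0013), the aldehyde oxidase Aox3 (−0.87 ± 0.19, 0.0026), the epoxygenase Cyp2j6 (−0.76 ± 0.17, 0.0022) and the epoxide hydrolase Ephx1 (−0.68 ± 0.18, 0.01) were lower too. Of 24 NRF2 targets, the antioxidant genes that oxidants and electrophiles induce, 2 were lower (8.33%, against 8.73% of all genes) and 0 higher. The lower ones were the superoxide dismutase Sod1 (−0.59 ± 0.15, 0.0075) and the catalase Cat (−0.59 ± 0.15, 0.006). The classic targets Nqo1 (0.27 ± 0.29, 0.54) and Hmox1 (−0.03 ± 0.46, 0.97) did not pass.

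A set of chaperones of the endoplasmic reticulum was higher. The unfolded protein response senses misfolded secretory protein and induces chaperones and degradation factors through XBP1, ATF6 and ATF4, and ATF6 with NF-Y reads a promoter element, the ER stress response element. Of 39 genes of the list, 15 were higher and 1 lower (median 0.29), the same counts without t2 339. The lower call was lost without Baseline 356 or t2 334, and 2 were lower without Baseline 344 or Baseline 352. To show the element beside the genes, its consensus, CCAAT followed by any 9 bases and CCACG, was searched on both strands in 250 bases before to 50 after the start of each RefSeq gene (GRCm38.p6, the mm10 assembly). It was found in 39 of 32851 promoters (0.119%) and in 9 of the 33 list genes with a promoter entry (27.3%). Of the list's 12 higher genes with an entry, 4 held it, and of the 21 others, 5. Among all 11070 genes tested that had an entry, 18 held the element (0.163%), of which 6 were higher and 0 lower. The list was made of genes of this response, so its share is no test of a change at t2. Capitals mark the CCAAT and CCACG letters, or their reverse complements. Shown are the 4 higher genes with a match, at chr2:34772010-34772058 (plus strand), chr8:84847060-84847108 (minus), chr15:88819505-88819553 (plus) and chr19:6046517-6046565 (plus), then 2 genes with a match that did not pass, at chr10:86705623-86705671 (minus) and chr11:50325785-50325833 (minus), each read along its gene's strand.
Hspa5: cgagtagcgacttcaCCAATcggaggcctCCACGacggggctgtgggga
Calr: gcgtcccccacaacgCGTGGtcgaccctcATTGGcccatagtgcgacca
Creld2: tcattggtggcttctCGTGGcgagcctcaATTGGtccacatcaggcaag
Syvn1: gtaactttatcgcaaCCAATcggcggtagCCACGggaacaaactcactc
Hsp90b1: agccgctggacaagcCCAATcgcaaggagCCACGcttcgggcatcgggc
Canx: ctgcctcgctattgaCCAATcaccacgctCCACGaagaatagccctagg

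Sdf2l1, a co-chaperone held in the endoplasmic reticulum, lay at 20.2 to 33.4 CPM at baseline (median 30.0) and at 80.7, 58.5, 75.9, 78.8 and 78.2 CPM at t2 (1.37 ± 0.19, 3.7e-05). Hyou1, a large chaperone of the same compartment, lay at 103 to 174 CPM (median 137) and at 293, 254, 229, 376 and 224 CPM (1.00 ± 0.16, 0.00012). Hspa5, the central chaperone BiP, lay at 457 to 777 CPM (median 570) and at 1180, 871, 1030, 1320 and 884 CPM (0.84 ± 0.18, 0.0019). None of these 3 overlapped between groups. The disulfide isomerase Pdia4 (0.72 ± 0.13, 0.00052), the ubiquitin ligase Syvn1 (0.92 ± 0.22, 0.0041), the secreted factors Creld2 (0.60 ± 0.13, 0.0019) and Manf (0.89 ± 0.24, 0.012) and the lectin chaperone Calr (0.50 ± 0.15, 0.019) were also higher without overlap. The call of Calr was lost without Baseline 343 or t2 358 (adjusted p up to 0.057). Xbp1, the transcription factor of the response, rose with t2 360 inside the baseline range (0.75 ± 0.19, 0.0075). Hsp90b1 (0.02 ± 0.16, 0.94) and Canx (−0.15 ± 0.15, 0.5) did not pass, nor did the stress factors Atf4 (−0.01 ± 0.20, 0.98), Ddit3 (−0.16 ± 0.21, 0.62) and Ern1 (0.18 ± 0.22, 0.59). The calcium pump Atp2a2, which fills the compartment's calcium store, was not in the list and lay at 350 to 479 CPM and at 748, 1040, 804, 738 and 794 CPM (1.01 ± 0.12, 4.1e-06). Of 43 genes of the translocon, glycosylation and transport coats, 0 were higher and 4 lower (9.3%, against 8.73% of all genes), 2 without Baseline 356. Among the lower were the coat subunits Copb1 (−0.47 ± 0.12, 0.0078) and Copb2 (−0.69 ± 0.14, 0.0013).

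Many ribosomal protein genes were lower. Of 66 tested, 31 were lower and 0 higher (median −0.56), but scaled by library totals alone 22 were lower and 2 higher. Rps20 lay at 159 to 324 CPM at baseline (median 218) and at 84.2, 67.9, 56.7, 105 and 97.5 CPM at t2 (−1.51 ± 0.28, 0.00066). Rpl5, part of the complex that binds MDM2, lay at 163 to 334 CPM and at 116, 91.3, 116, 144 and 100 CPM (−1.0 ± 0.18, 0.00047). The groups overlapped for neither. Rpl12 (−2.14 ± 0.40, 0.00068) and Rps7 (−1.16 ± 0.22, 0.00087) were lower too, and processed pseudogenes of such genes may share their reads. Of 61 respiratory chain and ATP synthase genes, 16 were lower and 1 higher (median −0.19), and 10 lower by library totals. Cox7b (−0.77 ± 0.13, 0.00039), Uqcrh (−0.77 ± 0.14, 0.00042) and Ndufs1 (−0.76 ± 0.14, 0.00069), subunits of the oxidase, of complex III and of complex I, did not overlap between groups. Ndufs7 was higher (0.52 ± 0.16, 0.021), a call lost without Baseline 343 (adjusted p = 0.05). In the same libraries the ribosomal RNA precursor Rn45s took 2.76% to 5.73% of counts at baseline and 1.24% to 3.33% at t2. Lars2, the mitochondrial leucine tRNA ligase gene, lay at 3200 to 6540 CPM and at 706, 1900, 641, 1850 and 1360 CPM (−1.78 ± 0.33, 0.00062). Mir6236 (−2.70 ± 0.68, 0.0075) and Mir6240 (−2.67 ± 0.52, 0.00089, and −1.98 without Baseline 343) fell as well. The part of RNA composition in these falls was not tested.

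**Figure D3:**
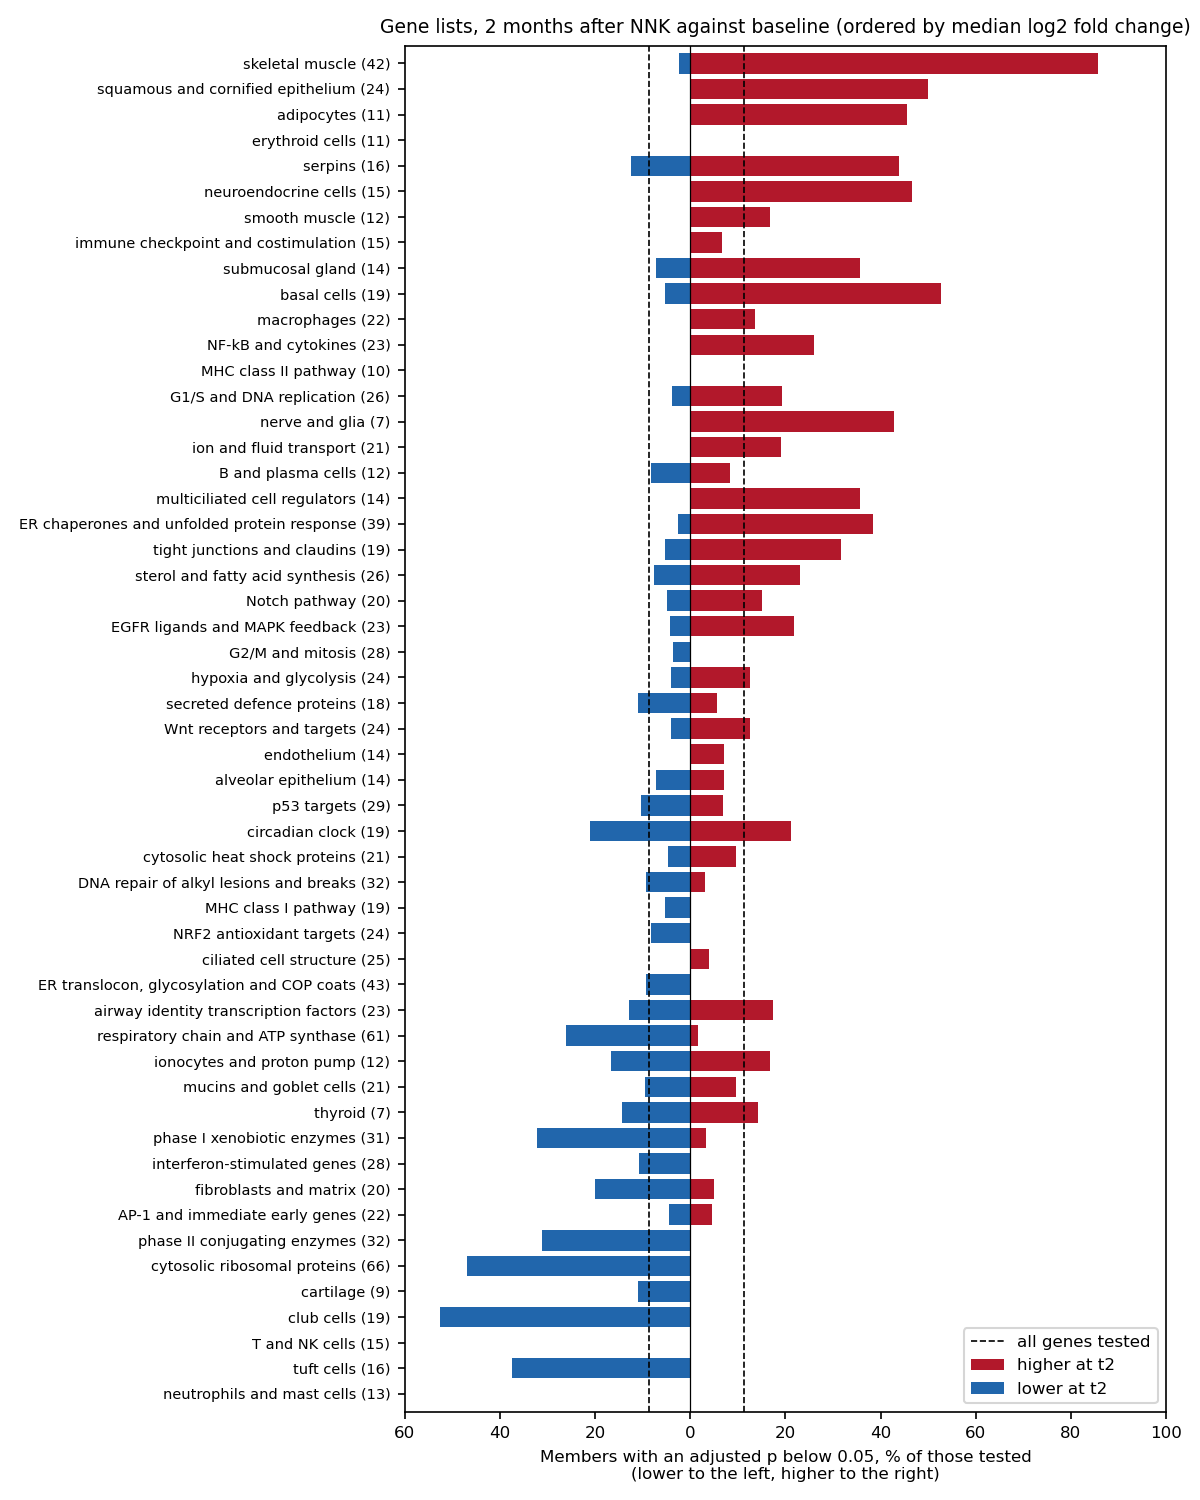
Share of the members of each list (number tested in parentheses) that were higher (red, to the right) or lower (blue, to the left) at t2, in percent, ordered by the list's median log2 fold change. Dashed lines mark the same shares over all genes tested, 11.2% higher and 8.73% lower.

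Genes of the DNA damage response passed at shares near or below those of all genes (11.2% higher and 8.73% lower). Of 29 p53 targets, 2 were higher (6.9%) and 3 lower (10.3%), with 1 lower without Baseline 343. Cdkn1a, which encodes the cell-cycle inhibitor p21, lay at 57.1 to 72.9 CPM at baseline (median 65.3) and at 140, 133, 101, 151 and 139 CPM at t2 (1.04 ± 0.23, 0.0027). The nuclease gene Aen was higher (0.88 ± 0.23, 0.0082), and Trp53inp1, a p53 cofactor, fell from 67.5 to 87.1 CPM to 30.8 to 56.2 CPM (−0.82 ± 0.24, 0.016). Of 32 repair genes, 3 were lower (9.38%) and 1 higher (3.12%). The base excision polymerase Polb fell from 16.7 to 31.1 CPM to 12.8, 6.44, 11.6, 11.6 and 12.4 CPM (−0.93 ± 0.20, 0.002) and the damage kinase Atm from 23.5 to 33.6 CPM to 17.8, 9.02, 19.8, 18.0 and 15.9 CPM (−0.77 ± 0.19, 0.0054). Both were lowest in t2 339, and without it were −0.78 (adjusted p = 0.0047) and −0.61 (adjusted p = 0.013). The uracil glycosylase Ung was higher (1.18 ± 0.34, 0.016), a call lost without t2 360 (adjusted p = 0.052), and 2 repair genes were higher without t2 339. Mgmt, which removes the methyl group that NNK leaves on guanine, averaged 7.85 ± 1.46 and 8.49 ± 0.349 CPM (0.11 ± 0.22, 0.75).

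A few replication genes were higher. Of 26 G1/S genes (median 0.36), 5 were higher (19.2%) and 1 lower (3.85%), against 11.2% and 8.73% of all genes. The lower call was lost without Baseline 343, Baseline 345, Baseline 356, t2 334, t2 347 or t2 358. Of 28 mitotic genes, 0 were higher and 1 lower (3.57%, against 8.73% of all genes). The number lower was 0 without Baseline 343, Baseline 355, t2 334 or t2 358. Cyclin D2 (Ccnd2) lay at 195 to 330 CPM at baseline and at 500, 449, 411, 529 and 461 CPM at t2 (0.85 ± 0.18, 0.0018), without overlap. The replication clamp Pcna (0.57 ± 0.16, 0.015) and the methylation reader Uhrf1 (0.81 ± 0.22, 0.012) were higher with overlap. Gins2, a helicase subunit, was at 3.65, 24.9, 4.95, 6.01 and 8.98 CPM at t2 (1.68 ± 0.38, 0.003), and without 339 its log2 value was 0.96 (adjusted p = 0.022). The proliferation marker Mki67 averaged 20.6 ± 10.1 and 15.9 ± 7.91 CPM (−0.37 ± 0.39, 0.53).

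Several secreted growth factors were higher. Of 23 genes of EGFR ligands and MAPK feedback, 5 were higher (21.7%) and 1 lower (4.35%), against 11.2% and 8.73% of all genes. Ereg, an EGFR ligand, lay at 0.0365 to 0.425 CPM at baseline (median 0.184) and at 15.8, 8.73, 2.82, 14.5 and 0.841 CPM at t2 (5.43 ± 0.88, 0.00017). Its neighbour on chromosome 5, the ligand Areg, lay at 0.695 to 2.36 CPM and at 32.2, 7.15, 5.98, 24 and 2.61 CPM (3.07 ± 0.84, 0.012). Nrg1, a ligand of ERBB3, lay at 1.6 to 2.58 CPM and at 7.68, 20.2, 4.26, 12.5 and 2.96 CPM (2.30 ± 0.51, 0.0027). None overlapped between groups, and 360 was the lowest t2 library for all 3 ligands. Etv5, a transcription factor induced by ERK signalling, was higher in every t2 library (1.67 ± 0.37, 0.003), and the kinase Braf lower (−0.45 ± 0.13, 0.018). Among 24 Wnt genes, 3 were higher (12.5%) and 1 lower (4.17%), near or below the shares of all genes (11.2% and 8.73%). The lower call was lost without Baseline 343, Baseline 356 or t2 347, and 2 were lower without t2 360. Wnt7b, a ligand of airway epithelium, lay at 91.5 to 120 CPM at baseline and at 255, 219, 195, 307 and 188 CPM at t2 (1.19 ± 0.18, 9.1e-05). Wnt10a (1.98 ± 0.40, 0.0013) and the receptor Fzd1 (0.85 ± 0.21, 0.0067) were higher too, whereas the target gene Axin2 did not pass (0.50 ± 0.29, 0.23).

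The bone morphogenetic protein gene Bmp6 lay at 1.51 to 2.47 CPM at baseline (median 1.99) and at 20.1, 22.6, 8.80, 29.1 and 12.8 CPM at t2 (3.28 ± 0.33, 4.7e-07). Tnfrsf19, a Wnt-responsive receptor also called TROY, fell from 108 to 143 CPM to 37.5, 39.7, 49.1, 23.4 and 33.2 CPM (−1.80 ± 0.21, 4.6e-06). Neither overlapped between groups. Of 20 Notch genes, 3 were higher, 1 without t2 334, and 1 lower: the receptor Notch2 (−0.58 ± 0.15, 0.0071) was lower and the Notch inhibitor Numb higher (0.37 ± 0.11, 0.014). The Notch effector Hes1 averaged 120 ± 17 and 115 ± 25.8 CPM (−0.05 ± 0.19, 0.87).

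Few leukocyte markers passed. Of 15 T and NK cell markers tested, 0 passed, and 0 of 13 neutrophil and mast cell markers did, 2 being higher without Baseline 345. Sums also take in markers that were measured but not tested. The 20 T and NK cell markers summed to 9.12 to 43.3 CPM at baseline and 10.8 to 22.7 at t2. The 16 neutrophil and mast cell markers summed to 223 CPM in Baseline 345, 12.6 to 72.0 in the other baseline libraries and 30.1 to 45.4 at t2. Of 22 macrophage markers, 3 were higher (13.6%, against 11.2% of all genes) and 0 lower, and 1 was higher without t2 347. Their summed level was 3670 to 8550 CPM at baseline and 7120 to 12300 at t2. Gpnmb, a marker of lipid-laden and lysosome-rich macrophages, kept its call without any library: it lay at 1.24 to 5.04 CPM at baseline (median 2.72) and at 10.1, 5.56, 29.7, 15.9 and 29.7 CPM at t2 (2.65 ± 0.69, 0.0089). Cd68 (1.12 ± 0.36, 0.03) and the mannose receptor Mrc1 (2.05 ± 0.61, 0.02) each lost theirs without t2 347 (adjusted p up to 0.063 over single libraries for Cd68, of which Baseline 343, Baseline 344, t2 358 and t2 360 also ended it, and 0.052 for Mrc1). Of 23 NF-kB and cytokine genes, 6 were higher and 0 lower, 3 without t2 334. The chemokine Cxcl17 lay at 284 to 471 CPM at baseline and at 655, 703, 606, 580 and 570 CPM at t2 (0.77 ± 0.20, 0.008), without overlap. The subunit Nfkb1 was higher (0.42 ± 0.12, 0.011), at 199 CPM in t2 339 and 119 to 130 CPM in the other t2 libraries. Of 28 interferon-stimulated genes 3 were lower (10.7%, against 8.73% of all genes). This number ran from 0 without t2 334 to 8 without t2 360 and was 1 without Baseline 356, t2 347 or t2 358. Of 15 checkpoint genes 1 was higher (6.67%, against 11.2% of all genes). The number was 0 without t2 358, 2 without Baseline 345 or t2 334 and 3 without t2 339. Cd274, which encodes PD-L1, did not pass (0.68 ± 0.34, 0.16).

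Transcripts of skeletal muscle were higher in every t2 library. Of 54 muscle genes listed, 42 passed the level filter and were tested, of which 36 were higher and 1 lower (median 4.95). The filter counted all 28 knockout libraries, so a gene near 0 at baseline could pass only through libraries where it was high. These numbers are therefore partly set by the filter. The summed level of all 54 listed genes was 96.2 to 153 CPM at baseline and 401, 731, 378, 269 and 2930 CPM at t2, so that 360 stood apart. The fast-fibre creatine kinase Ckm lay at 0 to 0.438 CPM at baseline and at 42.1, 38.5, 22.8, 15.9 and 276 CPM at t2 (8.66 ± 1.70, 0.0013, and 7.25 without 360). The skeletal actin Acta1 lay at 0.533 to 7.05 CPM and at 79.3, 92.3, 56.8, 44.9 and 557 CPM (5.88 ± 1.12, 0.00094, and 4.6 without 360). Every t2 library was above every baseline library for both genes. Mylk2, a muscle kinase with 3 counts over the baseline libraries and 650 over those of t2, was 249 times as high (95% exact interval 84.9 to 1210, counting error only). The 3 counts were all in Baseline 345 and 327 of the 650 in t2 360, without which the ratio was 148. The calcium buffer Pvalb had 0 counts at baseline and 3341 at t2, at least 1280-fold higher against the floor of 3 counts over the group. Library 360 held 2009 of these counts, and the bound was 612-fold without it. The slow myosin Myh7 went down, from 12.2 to 77.7 CPM to 3.57, 8.86, 3.16, 5.53 and 18.0 CPM (−2.26 ± 0.61, 0.011). A tracheal brushing may pick up tissue beside the epithelium, and the part of sampling in these values was not tested.

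Fat cell genes moved the same way. Of 11 tested, 5 were higher and 0 lower (median 1.57), and 3 without Baseline 343, Baseline 344, Baseline 355 or t2 360. The summed level of all 12 listed genes was 58.0 to 94.3 CPM at baseline and 138, 239, 160, 145 and 433 CPM at t2, again highest in 360. The hormone-sensitive lipase Lipe, which cells other than fat cells also use, lay at 20.8 to 44.8 CPM and at 87.5, 115, 50.8, 102 and 79.9 CPM (1.53 ± 0.26, 0.00029). The lipid droplet protein gene Cidec lay at 0.656 to 2.63 CPM and at 4.03, 10.8, 7.02, 3.04 and 27.7 CPM (2.73 ± 0.58, 0.0018, and 1.98 without 360). The adipokine Adipoq lay at 0.073 to 2.73 CPM and at 2.24, 10.9, 6.29, 1.97 and 25.1 CPM (2.62 ± 0.85, 0.03), lost without Baseline 343, Baseline 344, Baseline 355 or t2 360 (adjusted p up to 0.12, and 1.83 without 360). The Schwann cell myelin gene Pmp22, which epithelia express as well, lay at 22.7 to 47.5 CPM and at 99.7, 120, 106, 149 and 83.4 CPM (1.75 ± 0.23, 1.3e-05). Summed cartilage markers were at 383 to 643 CPM at baseline and 170 to 403 at t2, and thyroid markers at 22.7 to 1090 and 11 to 31.8. Of 20 fibroblast and matrix genes, 4 were lower and 1 higher, with 1 lower without Baseline 344, Baseline 356, t2 334 or t2 358 and 2 higher without Baseline 356, and their summed level overlapped (875 to 1320 and 797 to 1400 CPM). Col1a1, the main chain of type I collagen, fell from 20.6 to 67.4 CPM to 6.31 to 14.8 CPM (−1.59 ± 0.39, 0.0052), while fibronectin (Fn1) rose from 3.30 to 16.0 CPM to 49.2, 54.2, 48.2, 23.8 and 34.7 CPM (2.13 ± 0.51, 0.0052). Neither overlapped between groups.

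**Figure D4:**
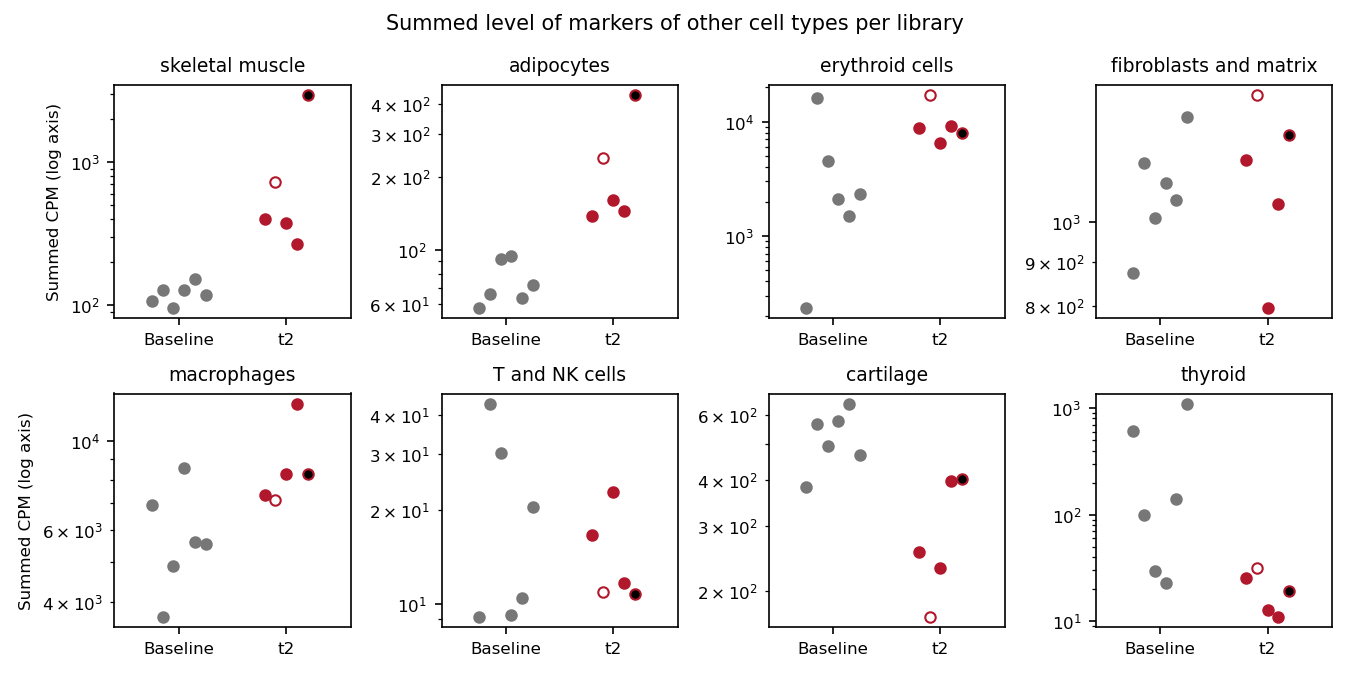
Summed level of the markers of 8 other cell types in each baseline (grey) and t2 library (red), in CPM on logarithmic axes, with t2 339 open and t2 360 filled black. Muscle and fat cell sums lie above all baseline libraries in all 5 t2 libraries and are highest in t2 360.

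Some metabolic and clock genes differed as well. Of 26 sterol and fatty acid synthesis genes, 6 were higher (23.1%) and 2 lower (7.69%), against 11.2% and 8.73% of all genes. The number higher was 3 without Baseline 343 or Baseline 356. The number lower was 1 without t2 339, Baseline 352, t2 347, t2 358 or t2 360. The fatty acid synthase Fasn lay at 128 to 215 CPM at baseline and at 399, 286, 326, 309 and 360 CPM at t2 (0.92 ± 0.15, 0.00018), and the sterol regulator Srebf2 at 135 to 221 CPM and at 304, 234, 270, 260 and 295 CPM (0.61 ± 0.12, 0.0012). Neither overlapped, and Insig1, which holds that regulator back, was lower (−0.69 ± 0.19, 0.013). Of 24 hypoxia and glycolysis genes, 3 were higher (12.5%) and 1 lower (4.17%), near or below the shares of all genes (11.2% and 8.73%). The phosphofructokinase Pfkp (0.87 ± 0.15, 0.00028), the mutase Pgam1 (0.59 ± 0.11, 0.00054) and the hexokinase Hk2 (0.77 ± 0.19, 0.0059) were higher and the kinase Pdk1 lower (−0.61 ± 0.16, 0.009).

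Of 19 circadian clock genes, 4 were higher and 4 lower (21.1% each), against 11.2% and 8.73% of all genes. The number higher was 1 without Baseline 345 or t2 334 and 2 without Baseline 344, Baseline 356 or t2 358. The repressor Cry1 lay at 13.5 to 22.4 CPM at baseline (median 18.2) and at 38.1, 42.6, 38.3, 42.9 and 30.4 CPM at t2 (1.05 ± 0.18, 0.00035). The nuclear receptor Rora, a clock activator, lay at 34.4 to 49.8 CPM and at 18.2, 23.5, 18.0, 15 and 21.6 CPM (−1.09 ± 0.16, 6.3e-05). The output factor Dbp lay at 13.0 to 28.3 CPM and at 2.55, 0.550, 4.06, 2.56 and 10.5 CPM (−2.24 ± 0.60, 0.011, and −2.97 without 360). None of the 3 overlapped between groups. The hour of sampling is not given in the sources used here, and its part in these values was not tested.

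Against the end of exposure (t0, 6 libraries), 4445 of 14847 genes (29.9%) differed at t2. This comparison shares the t2 libraries with the one above, so its values are set beside the levels only. Motile cilium genes were far higher than at t0, with all 25 passing (median 2.06). Dnah5 averaged 694 ± 98.1 CPM (SD, n = 6) at baseline, 83.8 ± 86.8 at t0 (n = 6) and 564 ± 236 at t2 (n = 5; t2 over t0 2.75, adjusted p = 3.1e-06). Scgb3a1 averaged 12100 ± 4540, 512 ± 198 and 3590 ± 1460 CPM, above t0 (2.81, adjusted p = 1.2e-06) and below baseline. Cdkn1a averaged 64.5 ± 6.35, 474 ± 181 and 133 ± 19.2 CPM (−1.84, adjusted p = 2.9e-06) and Ecm1 16.0 ± 7.94, 959 ± 410 and 251 ± 113 CPM (−1.93, adjusted p = 0.0014), both below t0 and above baseline. Of 22 macrophage markers, 19 were lower than at t0 and 1 higher (median −2.73).

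Other genes did not pass against t0, which does not show that their levels were alike. Bmp6 averaged 18.2 ± 7.26 CPM at t0 and 18.7 ± 8.03 at t2 (0.04, adjusted p = 0.94), Serpinb10 32.3 ± 12.8 and 24.6 ± 5.36 CPM (−0.40, adjusted p = 0.37), Krt14 149 ± 47.7 and 89.6 ± 41.8 CPM (−0.73, adjusted p = 0.23) and Cyp2a5 3580 ± 1440 and 2430 ± 268 CPM (−0.56, adjusted p = 0.078). For 2 other genes t2 differed from both groups: Sdf2l1 averaged 28.7 ± 5.20 CPM at baseline, 45.2 ± 10.6 at t0 and 74.4 ± 9.03 at t2 (t2 over t0 0.72, adjusted p = 0.0052), and Cry1 18.6 ± 3.51, 18.6 ± 5.79 and 38.5 ± 5.04 CPM (1.05, adjusted p = 6.3e-05). Of the 39 genes of the list of chaperones and unfolded protein response, 16 were higher and 1 lower than at t0. Of the 43 translocon, glycosylation and transport coat genes, 17 were higher than at t0 and 0 lower. Of all genes, 29.9% differed from t0 in either direction.

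Between t2 and the next samples, taken 4 months after exposure (t4, 6 libraries), 0 of 14847 genes (0%) passed in edgeR's quasi-likelihood test. The smallest adjusted p was 0.084, 2034 genes had an unadjusted p below 0.05, DESeq2 called 155 and limma 0, and 16 passed without t2 339. At t4, Scgb3a1 averaged 3760 ± 1790 CPM (SD, n = 6), Ecm1 233 ± 171, Bmp6 9.82 ± 2.59, Sdf2l1 53 ± 16.0 and Cdkn1a 120 ± 43.6 CPM, and the test did not separate them from t2.

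**Figure D5:**
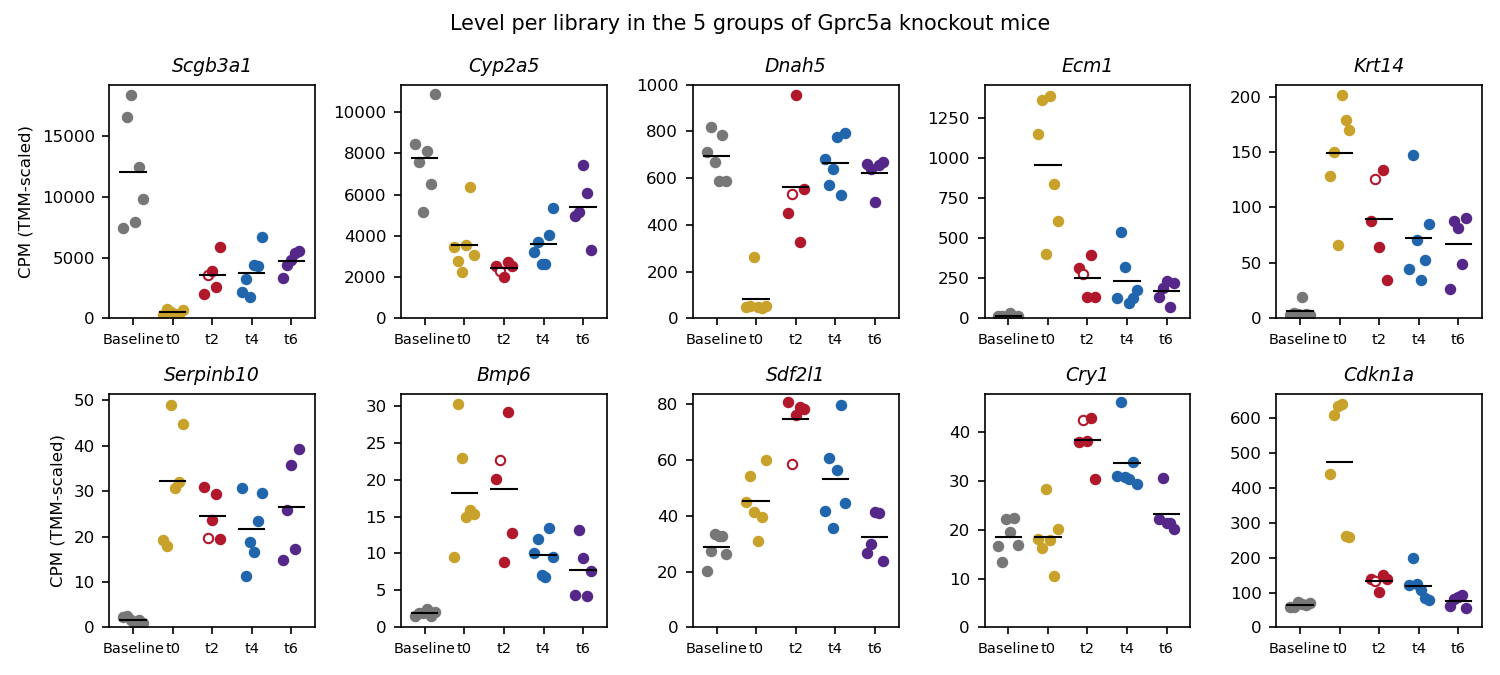
Level of 10 genes (CPM, linear axes from 0) in each library of the 5 groups of knockout mice, with group means as lines and t2 339 as an open circle. Dnah5 at t2 lies below all baseline libraries in 4 libraries and above them in 1, Krt14, Serpinb10 and Bmp6 lie above all baseline libraries at t2, and the means of Sdf2l1 and Cry1 are highest at t2.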

How the data were processed

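Poly-A libraries of airway brushings were read on an Ion Proton, from RNA whose integrity number was 7 or more, per the labels' protocols. The deposited knockout table holds estimated counts made by the authors, although its name says RPKM: 76.3% of values above 0 were whole within 0.01, and library totals differed. The submitters' processing notes name STAR 2.4.1d, Bowtie2 2.1.0, Partek and the build mm10. Their roles, the strand setting and how reads of near-identical genes were shared are not given in the sources used here, so such genes are uncertain. The table had 24223 rows, of which 27 symbols had turned into dates.

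The estimated counts were rounded, scaled by TMM and filtered to the 14847 genes that reached 1 CPM in 5 libraries or more. Any of the 28 knockout libraries counted, so genes near 0 at baseline could pass only through libraries where they were high. The test was edgeR's robust quasi-likelihood test (edgeR 4.0.16, R 4.3.3) with a mean per group over all 28 knockout libraries. It was two-sided, and p-values were adjusted by Benjamini-Hochberg over all genes tested, with a threshold of 0.05. Total counts of 21.2 to 29.7 M per library set the precision, and exact intervals and floors (3 counts over a group) cover counting error only, since the reads carry no molecular identifiers and need not be independent. Tested on simulated counts for t2 against baseline over 14847 genes, the fit found 23.9% of changes of 1.5-fold (16 of 67), 56.7% of 2-fold changes (38 of 67) and 92.4% of 4-fold changes (61 of 66), and it made 2 false calls. Only these genes were changed, all above a minimum baseline count. The spreads were the fit's own estimates, and no library of low complexity was simulated. Far more genes passed in the data (2953), which loosens the adjusted threshold, so these rates need not carry over. Alternatives were limma 3.58.1, DESeq2 1.42.0, other scalings and filters, a fit of baseline and t2 alone, a fit with sex as a covariate, and the omission of each library in turn. Gene lists are described by counts and medians only. The comparison, the lists and the members named were chosen with earlier results of these data known. Named genes were the 15 largest rises and falls without overlap (at least 5 CPM in the higher group, muscle genes left out), the 10 smallest p-values and the 10 largest differences in mean CPM in each direction, and the 2 smallest p-values per direction of each list with at least 3 calls, 151 genes in all, of which the first are described. Other list members, and all genes given as not passing, were chosen with their values seen. Promoter sequences are from RefSeq (GRCm38.p6). Python 3.11.15, numpy 2.4.6, pandas 2.3.3, scipy 1.17.1 and matplotlib 3.10.9 made tables and plots. The wild-type libraries were not used.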

Additional observations from a re-analysis of the deposited data

Results flagged for a closer look

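Values far from the rest of their group, by the gap to the nearest library over the group's range, were looked for in each gene described and in the library measures. Chance flags about 1 in 20 groups, and here 45 values were far from the rest in 366 groups examined (12.3%). Library t2 339 was far from the other t2 libraries most often. It had 14283 genes above 0, haemoglobin transcripts at 1.762% of counts and Gprc5a at 8.064 CPM. Its highs were Atp2a2 at 1040 CPM, Cd274 at 39.9, Gins2 at 24.9, Nfkb1 at 199, Serpinb6b at 98.7 and Slc15a2 at 202 CPM. Its lows were Dclk1 and Peg3 at 0, Polb at 6.44 and Sdf2l1 at 58.5 CPM. Library t2 360 was far above the other t2 libraries for the muscle genes Acta1 (557 CPM), Ckm (276 CPM) and Pvalb (88.9 CPM), for Prb1 (28.8 CPM) and for Zfp521 (3.27 CPM). Library t2 358 was highest for Calca (35.4 CPM) and Krt15 (2400 CPM). The library t2 334 held 492 counts of Xist together with Y-linked counts, a signal outside the comparisons made. Library t2 347, counted as female, held 21 Y-linked counts, against 0 to 5 in the other female libraries. Whether t2 334, t2 339 or t2 347 is a mixture of samples was not tested.

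At baseline, library 352 was far above the others for genes of stratified epithelium and junctions: Krt13 at 22.6, Krt14 at 18.9, Cnfn at 0.388, Ecm1 at 31.6, Cldn2 at 23.9 and Cldn4 at 217 CPM, and also for Prb1 at 0.679 CPM. These are genes that were higher at t2, and 352 is an unexposed animal. Library 356 was highest for Aldh1a1 at 10600, Cldn10 at 85.6, Cyp2j6 at 61.4, Etv5 at 6.50, Rgs13 at 12.1, Rps7 at 339 and Tgm1 at 3.16 CPM and lowest for Numb at 39.5 CPM. Library 345 was highest for Muc13 at 1.25, Muc5ac at 58.6, Mylk2 at 0.104 and Pigr at 3880 CPM. Library 343 was highest for Mir6236 at 520.0, Mir6240 at 51.8 and Trp63 at 49.5 CPM, and 355 for Zfp521 at 14.2 CPM. Library 344 had 16686 genes above 0, the fewest at baseline, and haemoglobin at 1.522% of counts, the most.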

How the results depend on the processing

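The number of genes that differed at t2 was 2953 and stayed within 1.5 times that under every alternative run: 2054 without t2 334 and t2 339 together, 2149 from the baseline and t2 libraries alone, 2554 by library totals, 2716 without a filter, 2772 with at least 5 CPM, 2915 with upper-quartile scaling, 2970 with DESeq2 size factors, 2974 without haemoglobin genes, 3080 with sex as a covariate, 3340 with limma, 3626 with DESeq2 and 4207 with limma's quality weights. Leaving out single libraries gave 2134 (without Baseline 356) to 3293 (without t2 339). The number of genes lower, 1296 in the test reported, was 504 by library totals and 2138 with quality weights, and the causes were not tested. Calls over all gene lists numbered 311, and 238 to 310 with 1 library left out. Of 151 named genes, 26 lost their call without at least 1 library, 6 of them without t2 339, and 57 differed from t0 (48 to 58 with 1 t2 library left out). Against t4, 0 of them passed, 0 with any t2 library left out and 3 with DESeq2 (Gins2, Mb and Tgm1). The cause was not tested. DESeq2 and limma for t4, and counts without single t2 libraries for genes near 0 at baseline, were chosen after seeing the data. Genes changed less than 2-fold were often missed on simulated counts. No paired analysis was possible because animal numbers are not shared between groups.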
